A study of Mus musculus with 5 samples.

Results

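Hepatic stellate cells (HSC), the vitamin A-storing pericytes of the liver sinusoid, carried RNA for a small set of proteins, most of them secreted, that recognise foreign or damaged surfaces. The set described here is 5 of the 31053 genes counted: the collectins Colec10, Colec11 and Colec12, the ficolin Fcna, and Masp1, the gene of a protease that collectins and ficolins carry. They were listed by name with their levels in these libraries already known. Fcna and Colec10 were picked out because their ratios between libraries stood out, and the levels in the 3 cell classes below were part of the choice. Ratios and class levels are therefore a description, and no test was made on them.

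Cells were sorted from livers of male Rosa26mTmG;Col1a1-Cre mice on a C57BL/6J background, in which Cre recombinase driven by the Col1a1 collagen promoter turns on green fluorescent protein (GFP) for good. A cell of a Col1a1+ gate is thus one in which that promoter had been active, whatever its present Col1a1 level, and all groups carried both alleles. Mice received diethylnitrosamine (DEN, a liver carcinogen) at 10 mg/kg when 2 weeks old and then a Western alcohol diet (WAD, with 3.5% ethanol by volume) for 5 months from 6 weeks of age, or saline and chow over the same ages. Vitamin A autofluorescence split GFP+ cells into VitA+Col1a1+ and VitA-Col1a1+ gates, and with the 2 kinds of liver this gave 4 libraries, called VitA+ DEN+WAD, VitA- DEN+WAD, VitA+ chow and VitA- chow here. One more library from DEN+WAD liver was labelled VitA-Col1a1-. Each group was 1 library, and how many mice went into a library is not given in the sources used here. No difference between libraries has a replicate check, and cells of a library are not replicates, so 95% intervals below cover counting error only.

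The lectin pathway is the branch of complement that starts from sugar patterns. Collectins and ficolins are trimers with a collagen-like stalk and a head that binds sugars or acetylated groups. They circulate with MASP proteases, which on binding cleave C4 and C2 and so lead to the cleavage of C3. Colec10 encodes collectin liver 1 and Colec11 collectin kidney 1, which can join in mixed complexes. Colec12 encodes a membrane-bound scavenger receptor with a collectin head, and Fcna encodes ficolin A, known as a plasma protein of the mouse with macrophages among its sources. Masp1 gives rise, by alternative splicing, to 2 proteases and a shorter form that lacks the protease domain.

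In GRCm38 (mm10) all 5 are protein-coding. Colec10 lies on chromosome 15, 54410774 to 54466358, plus strand. Colec11 lies on chromosome 12, 28594173 to 28623377, minus strand. Fcna spans 25624666 to 25628030 on chromosome 2, minus strand. Masp1 spans 23449417 to 23520815 on chromosome 16, minus strand. Masp1 has 3 coding transcripts with 3 different ends, and its counts are summed over them, so its products cannot be told apart here. No other protein-coding gene shares a strand with any of the 5 at these positions, while Fcna lies over the antisense gene Fcnaos and Masp1 over Rtp4, both on the opposite strand.

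For 2 of the 5, Fcna and Colec11, the RefSeq promoter table of GRCm38.p6 held an entry. Both are shown because the genes were read from the same cells but parted in their levels between cell subsets, as described below. The bases run 5′ to 3′ on the minus strand, at chr12:28623378-28623580 for Colec11 (203 bases) and chr2:25628031-25628224 for Fcna (194 bases), and end just before the farthest annotated start. Capitals mark matches to any of 4 motifs searched on both strands: TATAAA, the core of the TATA box, AGGTCA, a site of nuclear receptors, TGANTCA, the AP-1 site, and AGATAA, the site of GATA factors.
Colec11: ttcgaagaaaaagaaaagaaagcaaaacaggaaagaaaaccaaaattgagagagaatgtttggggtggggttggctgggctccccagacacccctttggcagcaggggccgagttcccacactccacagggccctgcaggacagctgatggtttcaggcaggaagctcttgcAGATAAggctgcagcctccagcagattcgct
Fcna: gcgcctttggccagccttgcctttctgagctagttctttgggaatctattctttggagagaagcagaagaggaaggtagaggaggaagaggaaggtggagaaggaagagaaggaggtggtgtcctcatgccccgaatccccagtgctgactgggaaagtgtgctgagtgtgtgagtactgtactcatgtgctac
The Colec11 stretch held 1 match, AGATAA, and the Fcna stretch held none. Of 32851 promoters, 8.51% held AGATAA within 203 bases. The TATA box, the nuclear receptor site and the AP-1 site were each in 5.36% to 11.5% of promoters at these 2 lengths. All these shares were read in the first 203 or 194 of the 250 bases before each RefSeq start. The bases nearest that start were thus left out, whereas the 2 stretches shown end at a start that GENCODE places farther upstream. The shares are therefore not a like background for them. A match or its absence concerns these letters in this window only.

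Levels were counted as unique molecular identifiers (UMIs, each 1 captured RNA molecule) and scaled to CPM, UMIs per 1000000 UMIs of the library or class. They are compared within a gene, not between genes. The libraries held 259 to 10481 cells and 6145748 to 149936344 UMIs, and 3 UMIs, the most that a count of 0 allows, came to 0.0200 to 0.488 CPM. Pairs of libraries shared 0 to 21 cell barcodes, at most 0.749% of the smaller one. The vitamin A gate stood with its labels as far as Lrat shows, the enzyme that makes the stored retinyl esters: 1497 CPM in VitA+ DEN+WAD and 1931 in VitA+ chow, against 611 and 380 in the VitA-Col1a1+ libraries. For the library labelled VitA-Col1a1-, Lrat stood at 448 CPM, between the values of the VitA-Col1a1+ libraries. Its Col1a1 stood at 1062 CPM, which goes against the Col1a1- part of the label at the level of RNA. The library is called by its label only. Its header names a later version of the counting software than the other 4.

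**Figure D1:**
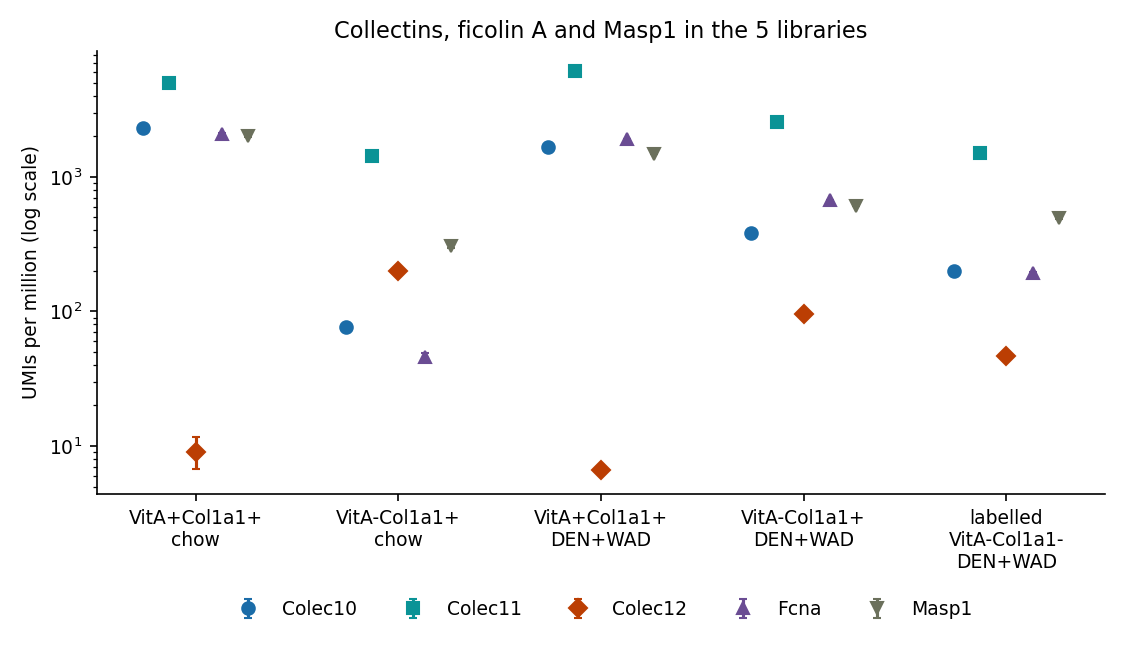
Level of each of the 5 genes in every library (y axis, CPM over all cells on a log axis; x axis, library), with exact Poisson 95% intervals where wider than the points. Fcna runs from 45.7 in VitA- chow to 2097 in VitA+ chow, and Colec12 runs the other way, from 6.59 in VitA+ DEN+WAD to 201 in VitA- chow.

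Colec10 was highest in the VitA+Col1a1+ gate, at 2316 CPM (2278 to 2354) in chow and 1668 (1661 to 1674) in DEN+WAD liver. It came to 383 (377 to 389) in VitA- DEN+WAD and 199 (196 to 202) in the library labelled VitA-Col1a1-. VitA- chow was lowest, at 76.6 (72.2 to 81.2). No neighbours in this order had overlapping counting intervals.

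Fcna followed the same order, with 2097 CPM (2061 to 2133) in VitA+ chow and 1909 (1902 to 1916) in VitA+ DEN+WAD. VitA- DEN+WAD held 669 (661 to 676), the library labelled VitA-Col1a1- 195 (192 to 197), and VitA- chow 45.7 (42.3 to 49.2). Here too no intervals of neighbours met, and the 2 VitA- gates differed far more from each other than the 2 VitA+ gates did.

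Colec11 was found in every library at high levels, with 6111 CPM (6099 to 6124) in VitA+ DEN+WAD and 5018 (4962 to 5074) in VitA+ chow. VitA- DEN+WAD held 2570 (2555 to 2584). The other two lay close together, at 1502 (1495 to 1510) in the library labelled VitA-Col1a1- and 1438 (1419 to 1457) in VitA- chow. Colec11 was the only member whose highest level was in DEN+WAD liver.

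Masp1 ran from 1995 CPM (1960 to 2031) in VitA+ chow and 1490 (1484 to 1497) in VitA+ DEN+WAD to 609 (602 to 616) in VitA- DEN+WAD. It stood at 493 (489 to 497) in the library labelled VitA-Col1a1- and 306 (298 to 315) in VitA- chow. Its range over libraries was narrower than those of Colec10 and Fcna.

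Colec12, on chromosome 18, ran against the other members. It reached 201 CPM (193 to 208) in VitA- chow, 96.5 (93.7 to 99.3) in VitA- DEN+WAD and 47.0 (45.7 to 48.3) in the library labelled VitA-Col1a1-. The VitA+Col1a1+ libraries held 8.95 (6.74 to 11.6) in chow, which is 55 UMIs, and 6.59 (6.18 to 7.01) in DEN+WAD liver, and these 2 intervals overlapped.

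Which cells carried these RNAs was read from 3 classes, each defined by a gate gene and a marker list: Lrat+ mesenchymal cells, Stab2+ endothelial cells (Stab2 is a scavenger receptor of sinusoidal endothelium) and C1qa+ macrophages (C1qa is a subunit of complement C1q). The first class took in 93.4% to 96.6% of cells in the VitA+ libraries, 67.1% to 71.9% in the VitA- Col1a1+ libraries and 40.1% in the one labelled VitA-Col1a1-. A cell of this class need not be an HSC: the portal fibroblast list of 6 genes, which includes Thy1 and Fbln2, summed to 137 and 134 CPM in the VitA+Col1a1+ libraries but to 702 in VitA- DEN+WAD and 1409 in VitA- chow, with no gene at 0. The smooth muscle list of 4 genes (Myh11, Cnn1, Tagln, Actg2) summed to 449 to 734 CPM in the VitA+ gate and 1588 to 3010 in the VitA- gate, and Cnn1 and Actg2 were at 0 in VitA+ chow. Their part in the differences between gates was not tested beyond the subsets given below. The hepatocyte list of 9 genes summed to 127 to 810 CPM in the Col1a1+ libraries and to 7335 in the library labelled VitA-Col1a1-, and its part in the members' levels there was not tested.

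In the 4 Col1a1+ libraries Fcna came from mesenchymal cells. Lrat+ mesenchymal cells held 98.8% to 99.7% of Fcna UMIs there, against 70.9% to 98.3% of all UMIs. No cell met the C1qa+ rule, and the 10 macrophage genes summed to 2.44 to 4.05 CPM with 1 to 7 of them at 0. Clec4f, which defines resident Kupffer cells, was at 0 in 3 of these libraries and at 0.00667 CPM in VitA+ DEN+WAD, where Fcna stood at 1909.

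The library labelled VitA-Col1a1- was the only one with macrophages (1135 C1qa+ cells), and there the source of Fcna was divided. C1qa+ cells held 556 CPM of Fcna (546 to 567), Lrat+ mesenchymal cells 170 and Stab2+ cells 7.67. C1qa+ cells thus carried 50.4% of that library's Fcna UMIs with 17.6% of all its UMIs, and Lrat+ mesenchymal cells 40.6% with 46.3%. Fcna was 3.27-fold (3.17 to 3.36) lower in Lrat+ mesenchymal than in C1qa+ cells of this library. In the mesenchymal cells of the VitA+Col1a1+ libraries, at 1938 and 2192 CPM, the level was above that of these macrophages.

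The C1qa+ cells were not uniform. Split after the data were seen, the 773 cells with a Clec4f UMI held 723 CPM of Fcna and the 362 without one 137, a 5.27-fold difference (interval 4.89 to 5.69). Colec12 differed more, at 64.4 against 4.15 CPM (15.5-fold, 10.2 to 24.9). Median depth was 17849 UMIs per cell in the former and 12179 in the latter. A macrophage cluster led by Mmp12, Clec4f, Vsig4, Cd5l, Gpnmb and Folr2 had 608 CPM of Fcna and 58.3 of Colec12, while a cluster led by the monocyte genes Chil3, Il1b and Ccr2 had 92.8 and 3.67.

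**Figure D2:**
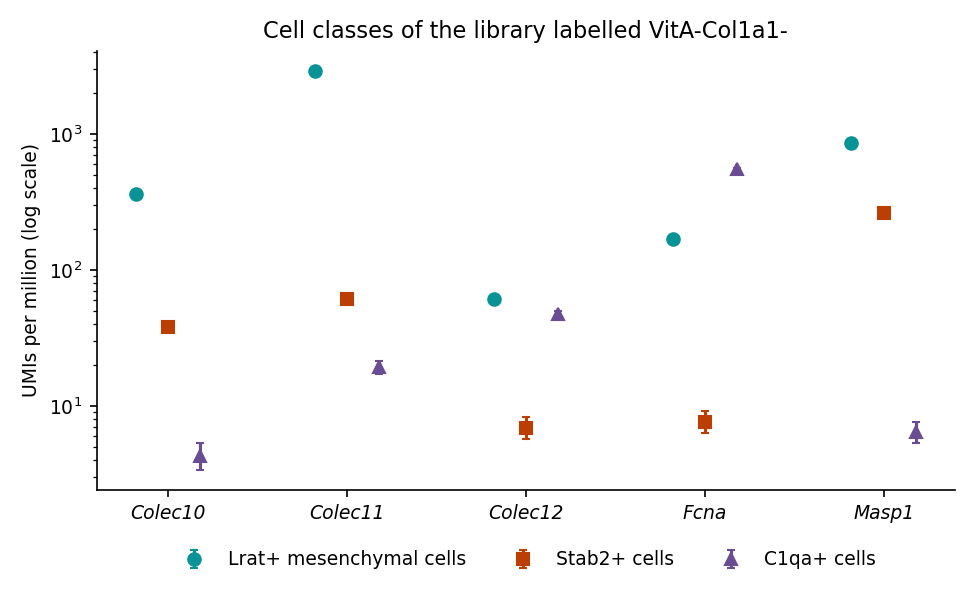
CPM of each gene (log axis, exact Poisson 95% intervals) in Lrat+ mesenchymal, Stab2+ and C1qa+ cells of the library labelled VitA-Col1a1-. Fcna is highest in C1qa+ cells at 556, and Colec10, Colec11 and Masp1 are highest in Lrat+ mesenchymal cells, at 361, 2911 and 858.

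The other members were divided between these classes in another way. Colec10 came to 361 CPM in Lrat+ mesenchymal, 37.9 in Stab2+ and 4.30 in C1qa+ cells of that library, and Colec11 to 2911, 61.3 and 19.3. Masp1 stood at 858 CPM in Lrat+ mesenchymal and 263 in Stab2+ cells but at 6.45 in C1qa+ cells. Colec12 was at 61.8 in Lrat+ mesenchymal cells and 47.2 in C1qa+ cells, a 1.31-fold difference (1.21 to 1.41), and at 6.94 in Stab2+ cells. Over Stab2+ cells, 5 of 5 members were at least 2-fold higher in Lrat+ mesenchymal cells, where 15.6% of all genes tested were. Over C1qa+ cells 3 of 5 were, against 28.7% of all genes, and 1 (Fcna) was at least 2-fold lower, against 15.3%. No member was 2-fold lower than in Stab2+ cells, where 16.6% of genes were. These classes were used to pick the genes, so nothing is read from the counts.

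Masp1 was the one member with a like level in endothelial cells of every library. Stab2+ cells held 367 CPM in VitA+ DEN+WAD (164 cells), 377 in VitA- DEN+WAD (421 cells), 409 in VitA+ chow (9 cells), 305 in VitA- chow (34 cells) and 263 in the library labelled VitA-Col1a1- (2021 cells). The library whose mesenchymal cells were lowest, VitA- chow, had 351 CPM there, 1.15-fold (0.994 to 1.34) the level of its endothelial cells. Colec10, Colec11 and Fcna in Stab2+ cells were at 3.22 to 62.5 CPM in all libraries, against 59.4 to 6206 in the mesenchymal cells of the same libraries. In a cluster of the library labelled VitA-Col1a1- led by the cytokine-induced endothelial genes Fgf23 and Ubd with Esm1, Masp1 stood at 287, and in one led by Vwf and Fbln2 at 169.

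Shares of cells with a UMI were compared after each cell was thinned to 2000 UMIs, with the share at full depth in brackets. Among Lrat+ mesenchymal cells Fcna was found in 85.9% (98.3%) of VitA+ chow, 82.7% (98.3%) of VitA+ DEN+WAD and 51.2% (76.2%) of VitA- DEN+WAD. The share fell to 19.0% (42.0%) in the library labelled VitA-Col1a1- and 5.02% (15.2%) in VitA- chow, where 24 of 478 cells had one. Stab2+ cells of the library labelled VitA-Col1a1-, which should lack Fcna, gave 1.72% (5.44%), at a median depth of 7941 UMIs against 11776 in its mesenchymal cells. Its C1qa+ cells gave 42.1% (64.3%).

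Colec11 was nearly universal in the same class, in 84.5% to 100% of thinned Lrat+ mesenchymal cells of the 5 libraries. Colec10 was in 97.5% in VitA+ chow, 90.7% in VitA+ DEN+WAD, 47.0% in VitA- DEN+WAD, 37.1% in the library labelled VitA-Col1a1- and 8.16% in VitA- chow. Masp1 was in 43.3% to 96.7% of these cells, and Colec12 in 1.07% to 28.5%, highest in VitA- chow. Colec12 in VitA+ DEN+WAD, at 1.07%, lay below the 2.45% of Stab2+ cells in the same library (4 of 163 cells, interval 0.673 to 6.16). Over all possible thinnings the expected shares were 1.09% and 1.04%. The share over the whole class could thus not be told from that of Stab2+ cells at this depth. Its UMIs were nonetheless concentrated in a part of the class: a cluster of 288 cells held 65.2 CPM, against 4.43 in the other cells.

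Single cells of the VitA+ gate mostly carried Colec10, Colec11, Fcna and Masp1 together. All 4 were found in 82.2% of thinned Lrat+ mesenchymal cells in VitA+ chow and 71.9% in VitA+ DEN+WAD. The share was 29.7% in VitA- DEN+WAD, 10.1% in the library labelled VitA-Col1a1- and 3.35% in VitA- chow. In VitA- DEN+WAD, Colec10 was in 67.7% of cells with Fcna and 25.3% of cells without, and Colec12 in 8.68% and 17.2%. In VitA- chow, 66.7% of the 24 cells with Fcna had Colec10, against 5.07% of the 454 without.

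DEN+WAD liver was then set against chow liver within each gate. In the VitA+Col1a1+ gate no member reached a 2-fold difference either way (0.893% of genes with at least 10 CPM in either library passed that line upward and 2.91% downward), and 4 of the 5 members passed that filter. Nor did any within its Lrat+ mesenchymal cells (0.994% of genes higher and 1.92% lower). Colec10 fell by 0.47 on the log2 scale (interval -0.50 to -0.45) and Masp1 by 0.42 (-0.45 to -0.39). Fcna differed by -0.14 (-0.16 to -0.11), Colec11 by 0.28 (0.27 to 0.30) and Colec12, on 55 chow UMIs, by -0.44 (-0.83 to -0.02). Scaling with TMM factors moved all genes of this comparison by 0.19 and put Fcna at 0.05, so no direction is given for it. The median was -0.42 over the members and -0.07 over all genes tested.

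In the VitA-Col1a1+ gate the differences were larger and ran in both directions. Fcna was 14.6-fold (13.6 to 15.8) and Colec10 5.00-fold (4.71 to 5.31) higher in DEN+WAD than in chow liver. Colec12 was 2.08-fold (1.98 to 2.18) lower. Colec11 and Masp1 were 1.79-fold (1.76 to 1.81) and 1.99-fold (1.93 to 2.05) higher, just under the 2-fold line, while Colec12 lay just past it. So 2 members passed the line upward, where 4.55% of genes did, and 1 downward, where 4.91% did. These contrasts chose Fcna and Colec10, and the counts are given as a description.

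Within Lrat+ mesenchymal cells of the VitA- gate the pattern was as large. Fcna was at 931 CPM in DEN+WAD and 59.4 in chow liver, Colec10 at 532 and 99.8, Colec11 at 3338 and 1648, and Masp1 at 751 and 351. All 4 were past 2-fold (3.11% of genes rose that far), and Colec12, at 89.8 and 210, was past it downward (6.51%). Bulk sums of this kind cannot tell fewer cells that express a gene from less RNA in each cell.

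**Figure D3:**
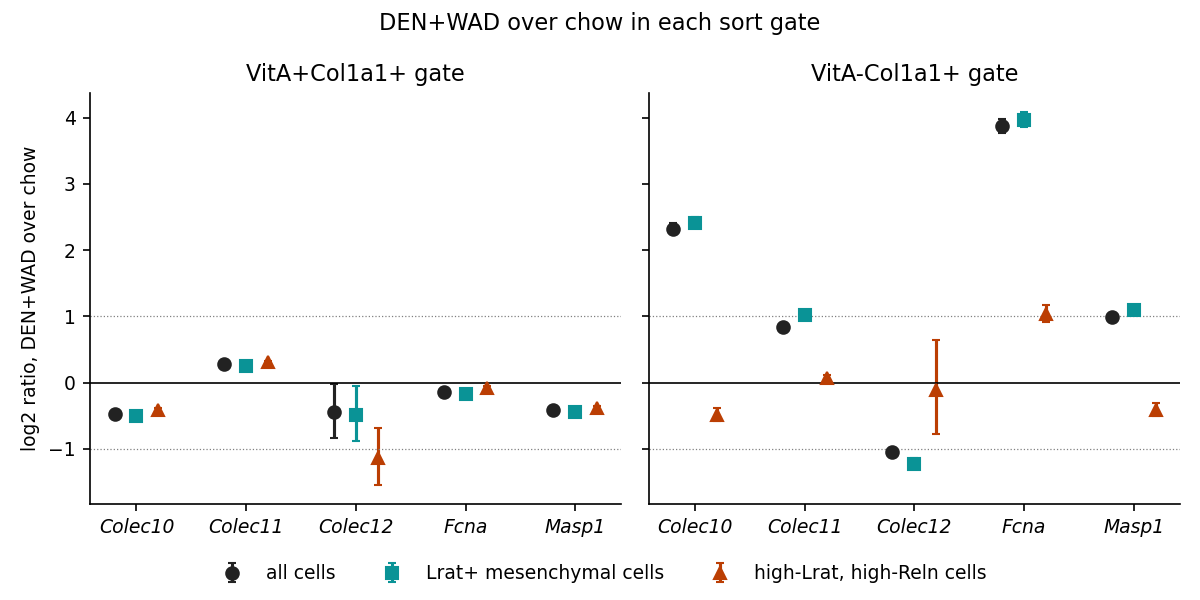
DEN+WAD over chow ratio (log2, 95% counting intervals) of each gene in the VitA+ and VitA- gates, over all cells, Lrat+ mesenchymal cells and Lrat+ mesenchymal cells high in Lrat and Reln. In the VitA- gate Fcna goes from 3.87 over all cells to 1.04 in the high cells and Colec10 from 2.32 to -0.49, while the VitA+ gate stays between -1.13 and 0.31.

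The VitA- libraries also differed in how many of their cells were rich in Lrat and Reln, and the part of this in the ratios was not tested beyond the subsets given here. Cells with over 10 Lrat and over 5 Reln UMIs per 10000 (Reln, reelin, is an HSC marker; both limits were chosen after the data were seen) made up 26.3% of VitA- DEN+WAD (717 cells) but 5.09% of VitA- chow (34 cells). In the VitA+ gate they made up 74.4% and 88.8%. Within these cells of the VitA- gate Colec10 was at 1056 CPM in DEN+WAD and 1482 in chow liver, a ratio of 0.713 (0.667 to 0.763). Masp1 was at 1094 and 1452, a ratio of 0.754 (0.705 to 0.807), and Colec11 was at 4371 and 4184, a ratio of 1.04. With the Lrat limit alone both Colec10, at a log2 ratio of 0.81 (0.72 to 0.90), and Masp1, at 0.35 (0.28 to 0.43), were higher in DEN+WAD, so the side on which they fell depended on the Reln limit.

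Fcna alone stayed past the 2-fold line there: 1814 CPM in DEN+WAD and 881 in chow liver, a 2.06-fold difference (1.89 to 2.24) that rests on 556 chow UMIs from 34 cells. Of all genes, 3.77% were at least 2-fold higher in this subset and 5.01% lower. Colec12 was at 27.9 and 30.1 CPM, with an interval of 0.583 to 1.56 for the ratio. Reln itself followed Colec10 across clusters (r = 0.94 over 57 clusters), and also Fcna (0.83) and Masp1 (0.80). Lrat followed Colec11 (0.93), Masp1 (0.91), Colec10 (0.82) and Fcna (0.68). Limits on Reln and Lrat thus also select cells with these members. With the Lrat limit alone, Fcna, at a log2 ratio of 2.39, was again past the line (2.92% of genes) and Colec12, at -1.95, was past it downward (8.33%). In the VitA+ gate no member other than Colec12 was past the line in the high cells, where 1.98% of genes were at least 2-fold lower and 0.824% higher, or with the Lrat limit alone (2.01% and 0.827%). Colec12 was 2.19-fold (1.61 to 2.92) lower in the high cells but, at 4.24 and 9.29 CPM there, is not among the genes that these shares count.

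In chow liver much of the Fcna and Colec10 of the VitA- gate came from a very small group of cells. A cluster of 27 cells, 4.04% of the library, held 85.8% of its Fcna UMIs and 79.2% of its Colec10 UMIs. It was led by Fcna, Colec10, Tmem56, Hhip, Angptl6 and Reln, although the members were kept out of the genes used to cluster. Fcna stood at 1201 CPM in these cells and 6.69 in the other cells, Colec10 at 1859 and 16.5, Masp1 at 1608 and 262, and Colec11 at 4801 and 1324. Colec12 showed no such concentration: it was at 14.3 CPM in the 27 cells and reached 375 in a cluster of 51 cells led by Ccl11 and Ptn.

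The gates set against each other differed in the same directions in both livers. In chow liver Fcna was 45.9-fold (42.5 to 49.6) lower in the VitA- than in the VitA+ gate, Colec10 30.2-fold (28.5 to 32.1), Masp1 6.51-fold (6.29 to 6.74) and Colec11 3.49-fold (3.43 to 3.55), and Colec12 was 22.4-fold (17.2 to 29.8) higher. In DEN+WAD liver Fcna was 2.86-fold (2.82 to 2.89) lower, Colec10 4.35-fold (4.29 to 4.42), Masp1 2.45-fold (2.42 to 2.48) and Colec11 2.38-fold (2.36 to 2.39), and Colec12 14.6-fold (13.7 to 15.7) higher. In each liver 4 members were past 2-fold downward (5.59% of genes in chow and 1.72% in DEN+WAD liver) and 1 upward (11.1% and 8.93%). Within Lrat+ mesenchymal cells the counts were 4 down and 1 up in chow liver (6.07% and 11.4% of genes) and 3 down and 1 up in DEN+WAD liver (1.1% and 5.26%). Each library enters 2 of the 4 comparisons of gate and liver, so they are not separate evidence.

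Among cells high in both Lrat and Reln the gates were closer. In chow liver Fcna remained 2.51-fold (2.31 to 2.74) lower in the VitA- gate and Colec12 3.24-fold (1.81 to 5.57) higher, and the other members were within 2-fold. With the Lrat limit alone 4 of 5 were past 2-fold in chow liver, at log2 ratios of -2.74 for Fcna, -2.04 for Colec10, -1.30 for Masp1 and 3.54 for Colec12. In DEN+WAD liver the ratio was 0.866 (0.853 to 0.878) for Fcna and 0.581 (0.571 to 0.592) for Colec10, and Colec12 remained 6.57-fold (5.69 to 7.58) higher. Genes past 2-fold in this subset were 4.31% up and 4.2% down in chow liver and 1.55% up and 0.359% down in DEN+WAD liver. With the Lrat limit alone they were 8.3% up and 4.27% down, and 1.56% up and 0.334% down.

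The members followed the Lrat level within a library as well. Mesenchymal cells of VitA- DEN+WAD were binned by Lrat UMIs per 10000 into 0, above 0 to 5, above 5 to 10, above 10 to 20 and above 20. Fcna rose over these bins from 18.1 to 170, 1105, 1649 and 2033 CPM. Colec10 rose from 5.63 to 95.8, 558, 990 and 1164, Masp1 from 138 to 402, 913, 1067 and 1114, and Colec11 from 1326 to 2274, 3743, 4378 and 4378, level over the last pair of bins. Colec12 dropped from 225 to 154, 62.9, 30.6 and 18.6. Genes of other mesenchymal cells also fell from the first to the last bin. The portal fibroblast genes Mfap4 and Thy1 went from 930 to 4.22 and from 45.7 to 0 CPM. The smooth muscle gene Myh11 went from 153 to 4.93, and Col1a1 from 1669 to 300. The part of these cells in the trends was not tested.

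The same bins in other libraries held different levels at a like Lrat level. At above 10 to 20 Lrat UMIs per 10000, Fcna was at 2152 CPM in VitA+ chow, 2035 in VitA+ DEN+WAD, 1649 in VitA- DEN+WAD, 252 in the library labelled VitA-Col1a1- and 239 in VitA- chow. Colec11 in that bin ran from 2590 in VitA- chow to 6442 in VitA+ DEN+WAD, a narrower range. Over whole libraries there were 1.27 Fcna UMIs per Lrat UMI in VitA+ DEN+WAD, 1.09 in VitA- DEN+WAD, 1.09 in VitA+ chow, 0.435 in the library labelled VitA-Col1a1- (macrophages included) and far fewer in VitA- chow, where Colec11 still had 3.79. For Colec11 the count was 2.60 in VitA+ chow and 3.36 to 4.21 in the other libraries.

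**Figure D4:**
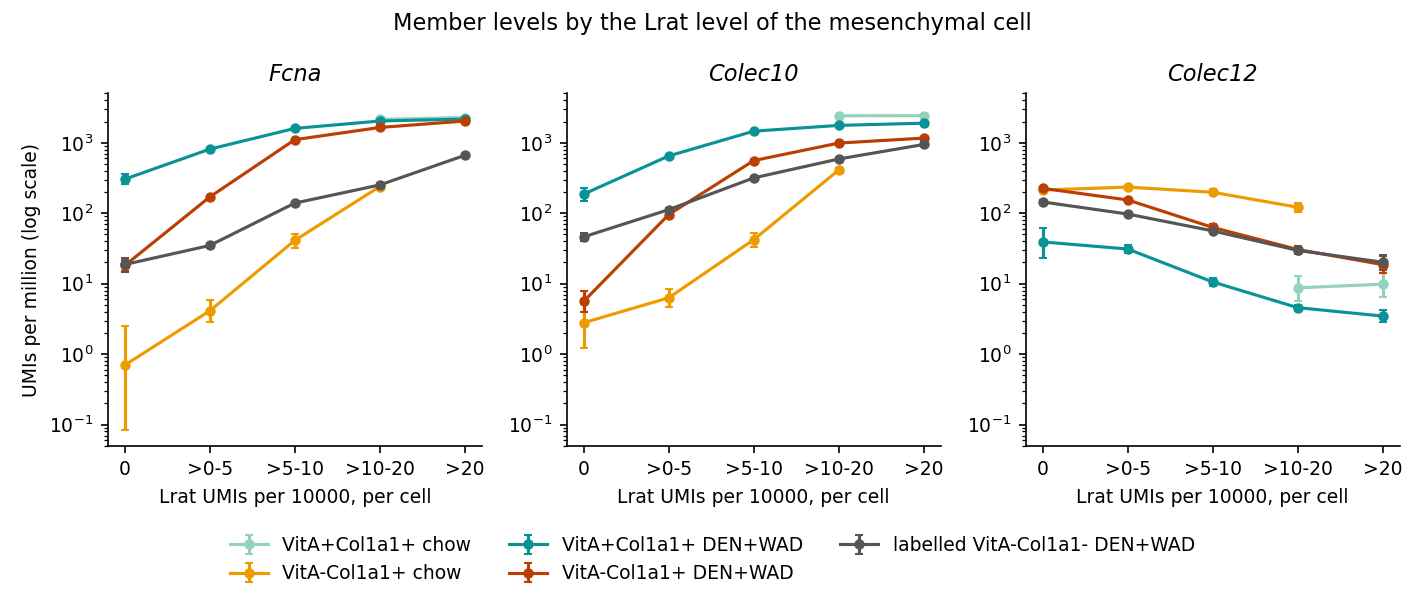
CPM of Fcna, Colec10 and Colec12 (y axis, log, with 95% counting intervals) in mesenchymal cells binned by Lrat UMIs per 10000 (x axis), a line for each library, with bins of under 20 cells left out. Fcna climbs with Lrat in the VitA- libraries, from 18.1 to 2033 in VitA- DEN+WAD, as does Colec10, and Colec12 goes from 225 to 18.6 there.

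Cells with RNA of the activation genes held less Fcna, and Colec10 was lower in them too. Acta2 encodes smooth muscle actin, the classical marker of activated HSC and also a smooth muscle gene. Among thinned Lrat+ mesenchymal cells, those with an Acta2 UMI had 2.68-fold less Fcna in VitA+ DEN+WAD (756 against 2028 CPM), 8.16-fold less in VitA- DEN+WAD (151 against 1235) and 4.17-fold less in the library labelled VitA-Col1a1- (83.1 against 347). In VitA- chow, on 3 UMIs in the cells with Acta2, the ratio was 0.101 (0.0202 to 0.308). Cells with a Col1a1 UMI had 1.30-fold less Fcna than those without in VitA+ DEN+WAD and 2.44-fold less in VitA- DEN+WAD. The difference was 1.68-fold in VitA+ chow, 27.7-fold in VitA- chow and 3.70-fold in the library labelled VitA-Col1a1-, each time downward. The VitA- chow value sets 12.5 CPM in 400 cells against 346 in 78 cells, a ratio with an interval of 0.0164 to 0.0716. Colec11 was 1.41-fold (1.28 to 1.56) higher with Acta2 in VitA- chow and 1.42-fold lower in VitA+ DEN+WAD, so it had no common direction with Acta2. Cells with a Col1a1 UMI held Colec11 at ratios of 0.609 to 0.939 to those without in the 5 libraries. Its interval reached past 1 in VitA+ chow alone (0.832 to 1.06). Colec10 was at ratios of 0.316 to 0.834 with Acta2. With Col1a1 it was at 0.134 to 0.866, with an interval past 1 in VitA+ chow alone (0.718 to 1.04). Masp1 was at 0.481 to 0.938 with Col1a1, again with an interval past 1 in VitA+ chow alone (0.769 to 1.14). With Acta2 Masp1 ran from 0.554 to 1.08, without a common direction.

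Subsets by Thy1 and Fbln2, a pair of portal fibroblast genes, gave Lrat+ cells with Fbln2 but no Thy1 UMI less Fcna and more Colec12. In VitA+ DEN+WAD the 96 such cells held 727 CPM of Fcna (693 to 762) and 56.1 of Colec12 (47.0 to 66.4), against 1962 and 5.63 in the 9995 Lrat+ cells with neither. In VitA- DEN+WAD the 111 such cells held 288 of Fcna and 163 of Colec12, against 1100 and 74.4. In VitA- chow the 51 such cells held 7.10 and 300 CPM, against 101 and 180 in the 290 cells with neither. In the library labelled VitA-Col1a1- the 209 such cells held 56.5 and 164, against 217 and 57.2, so the direction was the same in all 4. Colec10, Colec11 and Masp1 were lower in such cells of all 4 libraries as well. In VitA+ DEN+WAD they were at 492, 2345 and 922 CPM, against 1716, 6278 and 1520 in the cells with neither.

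Clusters of at least 50 cells, of which at least 50% were Lrat+ mesenchymal, were compared within a library. In VitA+ DEN+WAD and VitA- DEN+WAD they placed the peaks of Fcna and the collectins in different cells. In the library labelled VitA-Col1a1- Colec10 peaked with Fcna. VitA+ chow had 1 such cluster, so peaks could not be compared there. Within VitA+ DEN+WAD, Fcna was highest at 3259 CPM in 823 cells led by Inmt, Ano1, Lpar1 and Hsph1, and lowest at 775 in 288 cells led by Mgp, Mfap4 and Gas6. Colec10 and Colec11 were highest, at 2428 and 8326 CPM, in 1447 cells with Kcnk3, Clstn2, Mest and Vtn among the leading genes, in which Fcna was at 1035. The Mgp cluster was lowest for both, at 388 and 3386, and held 65.2 CPM of Colec12, 35.2% of that gene's UMIs in the library.

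The VitA- DEN+WAD library had the same parting. Fcna reached 2469 CPM in 375 cells that it led together with Hhip, Rspo3, Ecm1 and Tmem56, and these held 45.6% of its UMIs. Colec10 and Colec11 peaked at 1734 and 7677 in 188 cells led by Gcgr, Rgs4, Ttyh1 and Ngfr, where Fcna was at 910. A cluster of 423 cells led by Dpep1, C7, Lamc3 and Fmod held 18.9 of Colec10, 31.1 of Fcna and 1351 of Colec11, with 279 CPM of Colec12. In 164 cells led by Ephx3, Vtn and Aspn, Colec11 stayed at 3646 while Fcna was at 22.6 and Colec10 at 49.3.

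In the library labelled VitA-Col1a1-, Fcna, Colec10 and Masp1 peaked together among mesenchymal clusters, at 803, 906 and 1239 CPM, in 623 cells led by Hhip, Angptl6, Tmem56, Inmt and Ecm1. Colec11 peaked elsewhere, at 4384 in 1042 cells led by Rgs4, Tmem178 and Clstn2, where Fcna was at 91.6 and Colec12 at 3.30. Colec12 was highest, at 344, in 272 cells led by Sfrp1, Dpep1, C7, Cilp and Fmod, with 8.47 of Fcna. Clusters of at least 50 cells with Rgs4 among the leading genes had Colec11 at 3451 to 7677 and Colec12 at 3.30 to 6.33 in 3 libraries.

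Lrat+ mesenchymal cells were also split by Ngfr and Spon2, genes known to mark HSC at opposite ends of the liver lobule, portal and central. The split was chosen after the data were seen. In VitA+ chow, Fcna was at 3943 CPM in the 30 cells with Spon2 and without Ngfr and at 1855 in the 117 cells with Ngfr and without Spon2, a ratio of 2.13 (2.03 to 2.23). The ratio was 1.45 (1.43 to 1.46) in VitA+ DEN+WAD, 1.83 (1.77 to 1.88) in VitA- DEN+WAD and 3.15 (2.97 to 3.34) in the library labelled VitA-Col1a1-. VitA- chow was the exception, at 0.978 (0.772 to 1.24).

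Colec10 and Colec11 went the other way in all 5 libraries. Colec10 was lower in the Spon2 cells, at ratios of 0.563 to 0.732, and Colec11 at 0.527 to 0.717. Masp1 differed little, at 0.841 to 1.06, and Colec12 was higher, at 1.12 (0.965 to 1.30) in VitA- chow and 1.95 to 5.01 in the other 4. Lrat was at ratios of 1.01 in VitA+ DEN+WAD, 1.10 in VitA+ chow and at 1.04 to 1.24 in the other 3. Col1a1 was 5.11-fold higher in the Spon2 cells of VitA+ DEN+WAD and 1.51-fold higher in those of VitA+ chow, and its part in the ratios was not tested.

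**Figure D5:**
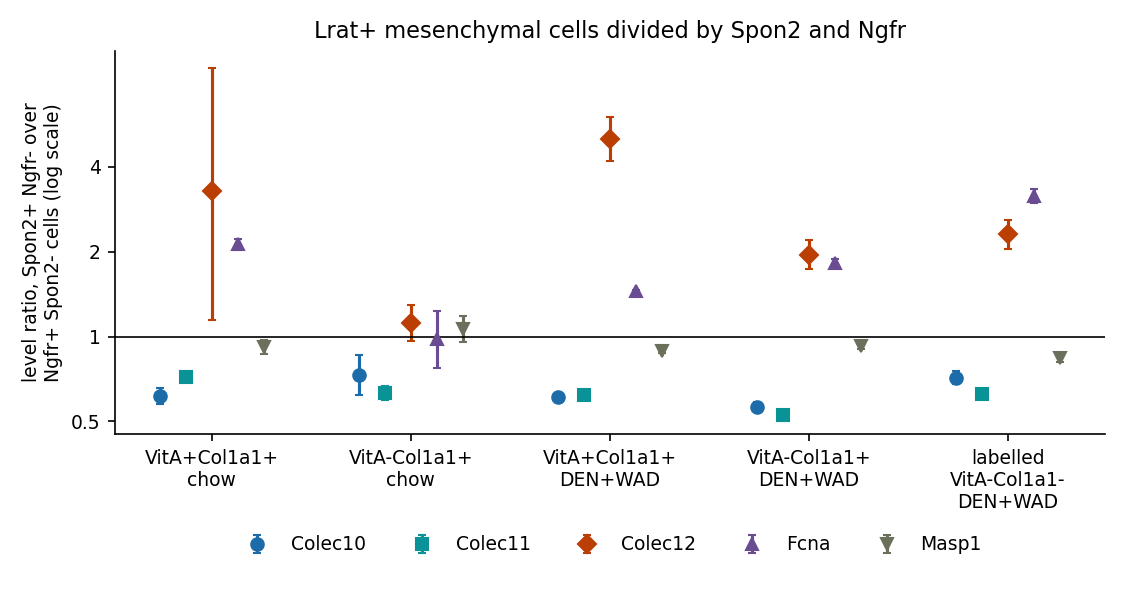
Level in Lrat+ mesenchymal cells with Spon2 and without Ngfr over the level in those with Ngfr and without Spon2 (log axis, 95% counting intervals), for each gene in every library. Fcna lies above 1 in 4 of 5 libraries (1.45 to 3.15) and Colec10 and Colec11 lie below 1 in 5 of 5.

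Across 57 clusters of at least 50 cells in the 5 libraries, the genes most like each member were found by Pearson correlation of log2(CPM + 1), as a description, since clusters of a library share its depth. Colec10 was most like Tmem56 (r = 0.96), Lama1 (0.95), Reln (0.94), Angptl6 (0.93) and Gdf2 (0.93). Fcna was most like Tmem108 (0.89), Clstn3 (0.88), Sectm1a (0.87), Tnfrsf21 (0.87) and Tmem56 (0.87). In the 34 clusters of the Col1a1+ libraries alone, where macrophages are absent, Tmem108 and Clstn3 were still the closest pair to Fcna, at 0.97 and 0.96.

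Colec11 was most like Sod3 (0.98), Sept4 (0.97) and Ifitm1 (0.97), and Masp1 most like Hgf (0.94), Slmap (0.94) and Hs3st3b1 (0.94), Hgf being the hepatocyte growth factor made by HSC. Colec12 was most like Svep1, Fmod and Itgbl1, at 0.86 each. Among the members, Colec10 went with Fcna (0.84) and Masp1 (0.82), Colec11 with Masp1 (0.87) and less with Fcna (0.57), and Colec12 ran against Colec10 (-0.56).

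The remaining genes of the lectin pathway were taken from lists of 27 genes in all. The other recognition molecules, Mbl1, Mbl2, Fcnb, Sftpa1 and Sftpd, were nearly absent: 0 of 5 reached 10 CPM in any Col1a1+ library. Masp2, the protease that cleaves C4 and C2, was at 0.147 to 0.777 CPM in these libraries and 6.63 in the one labelled VitA-Col1a1-. The 5 members were thus measured in cells with little RNA for the other soluble lectins.

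Of the 5 downstream complement genes, 3 reached 10 CPM in either library of the VitA+ gate comparison and 4 in that of the VitA- gate. C3 stood at 229 CPM in VitA- DEN+WAD and 578 in VitA- chow, against 7.63 and 1.14 in the VitA+ gate, so it was higher in the VitA- gate, as Colec12 was. C4b was at 452 and 617 CPM in the VitA- gate and 128 and 169 in the VitA+ gate. Cfb, the alternative pathway protease, was at 17.1 and 7.80 in the VitA- gate and 28.5 and 76.0 in the VitA+ gate, an order like that of Fcna. C2 was at 125 to 172 CPM in the Col1a1+ libraries. From chow to DEN+WAD, 1 (Cfb) was at least 2-fold lower in the VitA+ gate, as were 2.91% of all genes. In the VitA- gate 1 (Cfb) was at least 2-fold higher and 1 (C3) lower, against 4.55% and 4.91% of all genes.

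Of 6 complement inhibitors, 2 passed the filter, and both were within 2-fold in all 4 comparisons. Serping1, the C1 inhibitor that also blocks MASP proteases, was at 1057 to 1717 CPM in the Col1a1+ libraries. Of 7 scavenger receptors, 4 (Msr1, Cd36, Stab1 and Stab2) passed, and 4 of 4 were at least 2-fold higher in DEN+WAD than in chow liver in the VitA- gate (4.55% of all genes), while 3 of 4 were at least 2-fold lower in the VitA+ gate (2.91% of all genes). The 10 endothelial genes moved with them in both gates. Their sum was 2423 CPM in DEN+WAD and 884 in chow liver in the VitA- gate, and 433 and 892 in the VitA+ gate. Within Lrat+ mesenchymal cells of the VitA- gate 1 of the 7 passed the filter, and it was within 2-fold. Within those of the VitA+ gate 0 of 7 passed. Of the collectin receptors, Calr (calreticulin) was at 785 to 995 CPM and Lrp1 at 470 to 713 in the Col1a1+ libraries. Both were within 2-fold in all 4 comparisons. Cd93 went from 38.5 to 93.2 CPM from chow to DEN+WAD in the VitA- gate, where 4.55% of all genes rose at least 2-fold. In the VitA+ gate it went from 19.5 to 8.30, 2.35-fold lower, where 2.91% of all genes fell at least 2-fold. In each gate it moved with the endothelial genes.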

How the data were processed

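Single-cell RNA libraries were made on the 10x Genomics platform from sorted liver cells. The authors aligned reads to mm10 with Cell Ranger and deposited raw UMI counts per gene and cell. The labels and the headers of 4 libraries give version 3.1.0, the one labelled VitA-Col1a1- has 6.1.2 in its header, and both a v3.1 and a v2 kit are named, which is unsettled. All deposited barcodes were used and doublets were not removed.

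From those counts, levels were computed as CPM with exact Poisson intervals, ratios with exact conditional binomial intervals, and shares of cells thinned to 2000 UMIs with Clopper-Pearson intervals, all at 95%. Cells with fewer than 2000 UMIs (4 to 1439 per library) were left out of the thinned shares. Totals of 6145748 to 149936344 UMIs make these intervals narrow, and they cover counting error only. With 1 library per group no test was made: a gene was called past a 2-fold ratio, and the background is over genes with at least 10 CPM in either library. A class needed 1 UMI of its gate gene, 3 genes of its list, and 5 times the UMIs of each other list. The lists of the mesenchymal, endothelial and macrophage classes hold 9, 10 and 10 genes. Clusters (Leiden, per library) used 2000 variable genes without the members or the pathway genes, 30 components, 15 neighbours, resolution 1 and seed 7, in scanpy 1.11.5 (Python 3.11.15). Genes most like a member were the 5 closest to Colec10 and Fcna and the 3 closest to each other member by Pearson correlation of log2(CPM + 1). Of each pathway list up to 4 genes with the largest ratio were named, and some genes are not reported here. TMM factors came from edgeR 4.0.16, with no edgeR test. The counting and interval steps were tested on simulated counts. The members and all lists were chosen with earlier results of these data known, and the splits by Clec4f, by Ngfr and Spon2, and by Lrat and Reln limits after the values were seen. Gene positions are from GENCODE M21.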

Additional observations from a re-analysis of the deposited data

Results flagged for a closer look

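The DEN+WAD over chow ratios of Colec10, Fcna and Masp1 had opposite signs in the VitA- and VitA+ gates, for Fcna only without TMM scaling, and this difference was not tested, since each group is 1 library. Over all cells the log2 ratio of DEN+WAD over chow was 2.32 in the VitA- gate and -0.47 in the VitA+ gate for Colec10, 3.87 and -0.14 for Fcna, and 0.99 and -0.42 for Masp1. Within Lrat+ mesenchymal cells it was 2.41 and -0.51 for Colec10, 3.97 and -0.18 for Fcna, and 1.10 and -0.45 for Masp1. With TMM factors Fcna in the VitA+ gate came to 0.05, so its sign there depends on the scaling. Among cells over both the Lrat and the Reln limit the log2 ratio of Colec10 in the VitA- gate was -0.49 and that of Masp1 -0.41, the sign they had in the VitA+ gate, while that of Fcna was 1.04.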

How the results depend on the processing

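No paired analysis was possible because every group is 1 library, and no library could be left out. Counts of members past 2-fold kept within 1.5 times their value in 61 of 69 alternatives. From chow to DEN+WAD in the VitA+ gate the count was 0, and 1 (Colec12) with over 10 Lrat UMIs per 10000 and 1 with over 10 Lrat and over 5 Reln, where Colec12 was at 4.24 and 9.29 CPM and so under the filter of 10. In the VitA- gate it was 3, and 5 in Lrat+ mesenchymal cells only, 5 at 1.5-fold and 1 under both limits. The 3 calls were not the same with TMM factors, under which Masp1 (1.07) passed and Colec12 (-0.98) did not. Between gates it was 5, and 2 under both limits in chow liver, 1 under both limits and 1 under the Lrat limit in DEN+WAD liver. The log2 ratio of Colec10 in the VitA- gate turned from 2.32 to -0.49 under both limits, against 0.81 under the Lrat limit alone, and the cause was not tested. Masp1 in that gate also changed sign under both limits (-0.41), and Fcna in the VitA+ gate with TMM factors (0.05). Of 260 log2 ratios recomputed, 95 stayed within their counting interval. Leaving out the 27 cells named above, an alternative added after the data were seen like both limits, gave 6.64 for Fcna and 4.54 for Colec10 in the VitA- gate. These cells were taken from the chow library alone and lead in these genes, so both ratios could only rise. Over all cells of a library, members were in at least 50% of cells in 12 of 25 library and gene pairs after thinning, 16 at full depth and 10 when 2 UMIs were asked for. The Lrat+ mesenchymal over Stab2+ log2 ratio of Colec10 ranged from 1.89 to 4.32 over the class settings, against 3.25.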
